A study of Homo sapiens with 4 samples.

Results

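LIN28A, LIN28B, IGF2BP1, IGF2BP2, IGF2BP3, HMGA1, HMGA2, MSI1 and MSI2 are the LIN28, IGF2BP and Musashi RNA-binding proteins and the HMGA chromatin proteins. These 9 genes were taken by symbol from the 60651 gene IDs of a single-cell RNA-seq count table, and each symbol matched 1 ID. They were followed in CHP134, an established MYCN-amplified line from a human neuroblastoma, treated for 24 h with 13-cis retinoic acid (13cRA, 5 µM), doxazosin (10 µM), both drugs at these doses (the combination) or the vehicle DMSO (0.04%). 13cRA is a retinoid used to differentiate neuroblastoma cells, and doxazosin is an alpha-1 adrenergic receptor blocker. All 4 samples, 1 per treatment, shared 1 nanowell chip, and without replicates no difference could be tested. A difference past the fold means at least 0.5 in size on the log2 scale, taken between values in CPM (counts scaled to a library total of 1e6) with 1 CPM added.

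LIN28A and LIN28B are paralogs that block the maturation of let-7 microRNAs and are active mainly in embryonic tissue. let-7 in turn represses several of the genes described here, above all HMGA2, IGF2BP1 and LIN28B itself. With let-7 these targets form a loop that is high in fetal tissue and re-opened in many childhood tumours. LIN28B is a known driver of high-risk neuroblastoma, and the IGF2BP proteins stabilise the messages that they bind. HMGA1 and HMGA2 are small proteins that bend AT-rich DNA and are abundant in undifferentiated cells. MSI1 and MSI2 regulate translation in neural and blood progenitors.

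The let-7 family is shown because it represses several of the genes described here. Matches to its seed in these genes were not searched for. RefSeq (GRCh38.p14) lists 9 mature family members from 12 loci, and all 9 carry the same seed, given in capitals (bases 2 to 8):
let-7a: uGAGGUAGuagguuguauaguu
let-7b: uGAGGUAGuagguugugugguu
let-7c: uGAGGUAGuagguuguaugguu
let-7d: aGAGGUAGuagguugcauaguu
let-7e: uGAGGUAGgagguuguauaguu
let-7f: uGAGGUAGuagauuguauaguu
let-7g: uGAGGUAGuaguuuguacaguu
let-7i: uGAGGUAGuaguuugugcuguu
miR-98: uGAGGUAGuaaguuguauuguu
Mature microRNAs were not measured by these libraries.

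The cell filter kept 318 of 355 13cRA, 239 of 252 doxazosin, 287 of 307 combination and 353 of 373 DMSO cells. Their total counts ranged from 22636509 in the 13cRA library to 72192743 in the combination library. Median counts per cell were 59200 with 13cRA, 171793 with doxazosin, 221558 in the combination and 122615 in DMSO. After each cell was thinned to 34000 counts, the median 13cRA cell still had only 3895 genes, against 4679 to 4771 in the other libraries. The noradrenergic markers GATA3 and HAND2 had 294 to 465 and 73.9 to 85.7 CPM in the 4 libraries, while TH and DBH were at most 0.18 CPM. No Schwann, fibroblast, leukocyte or epithelial marker reached a mean of 5 CPM. Among endothelial markers 1 of 5 did, CLDN5, with 19.8 CPM under 13cRA, 0.71 under doxazosin, 11.1 in the combination and 0.54 in DMSO, while PECAM1, CDH5 and VWF stayed at or below 1.2 CPM and EGFL7 had 1.06, 4.22, 1.37 and 5.00 CPM in the same order. Some other markers passed 5 CPM in single libraries. The fibroblast marker COL3A1 had 10.3 CPM under 13cRA and at most 0.68 elsewhere. ERBB3, a Schwann marker, had 6.54 under 13cRA and at most 1.30 elsewhere. The fibroblast marker COL1A2 had 3.53, 6.84, 2.19 and 6.31 CPM in the order of CLDN5.

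Each gene family was carried by particular paralogs, and the others were close to silent. LIN28A (chromosome 1, 26410778 to 26429722, GRCh38, as for all gene positions here) had 11 counts in the 13cRA library, 7 with doxazosin, 17 in the combination and 3 in DMSO. IGF2BP2 (chromosome 3, 185643739 to 185825056) had 17, 8, 10 and 10 counts in the same order. HMGA2 (chromosome 12, 65824131 to 65966295) had 22, 18, 38 and 13 counts. All 3 stayed below 1 CPM in all 4 libraries and were seen in at most 2.01% of thinned cells. A single cell held 61.5% of the HMGA2 count in DMSO and 36.4% of the LIN28A count under 13cRA, so no fold is given for these genes. No thinned cell held more than 1 of the 3.

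The other 6 genes passed a mean of 5 CPM over the 4 libraries, as did 9579 genes in all. Per kb of exon, LIN28B made up 98.8 to 99.9% of the LIN28 signal and HMGA1 at least 99.9% of the HMGA signal in all 4 libraries. IGF2BP1 made up 83.0% of the IGF2BP signal with 13cRA, 76.2% with doxazosin, 74.0% in the combination and 82.1% in DMSO, and IGF2BP3 nearly all the rest. Per kb of the longest coding transcript, IGF2BP1 made up 73.2%, 63.8%, 61.0% and 71.7% in the same order. The combination shares include 1 cell that held 17.4% of the IGF2BP3 count of that library. HMGA1 had the highest level per kb of the group, with 34.1 to 57.8 CPM per kb, ahead of IGF2BP1 with 16.2 to 20.8. LIN28B had 10.3 to 15.4 CPM per kb, of which the 15.4, in the combination, was 9.35 without the 1 cell that held the most LIN28B counts. With the longest coding transcript MSI2, with 11.5 CPM per kb under 13cRA, 15.9 with doxazosin, 14.9 in the combination and 13.4 in DMSO, passed LIN28B (11.2, 12.3, 16.8 and 11.4 in the same order) in 3 of the 4 libraries. The 16.8, in the combination, includes the cell that held the most LIN28B counts. Without that cell LIN28B fell there from 92.6 to 56.1 CPM, so its lead over MSI2 in the combination rests on that cell. The order within the Musashi pair depended on the length used. With the union of exons MSI1 made up 54.9% with 13cRA, 42.5% with doxazosin, 45.6% in the combination and 60.3% in DMSO. With the longest coding transcript it made up 27.3%, 18.5%, 20.5% and 31.9%, because the MSI2 exon union of 21.5 kb shrinks to 6.36 kb.

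**Figure D1:**
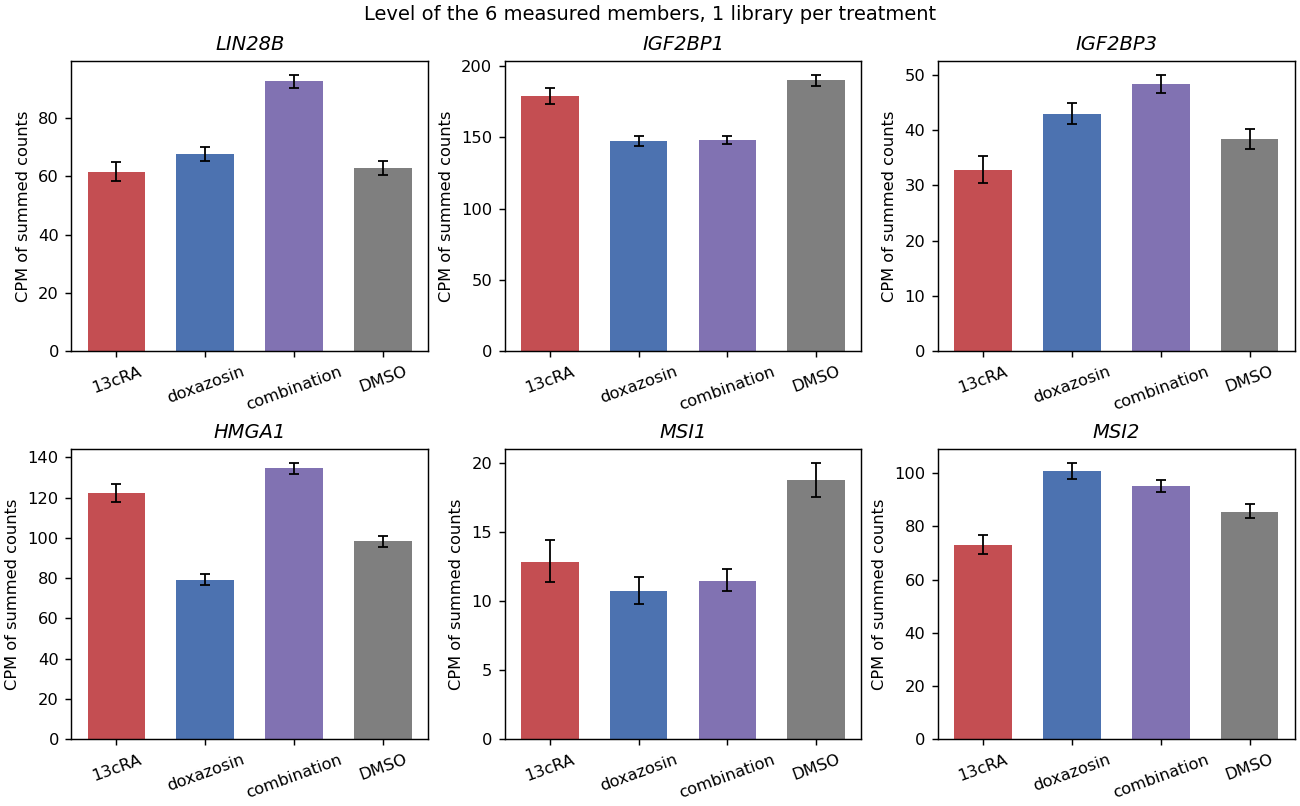
CPM of summed counts (vertical axis, starting at 0) for the 6 measured genes in the 13cRA, doxazosin, combination and DMSO libraries, 1 library per bar, with exact 95% Poisson intervals for counting error only. HMGA1 stood at 122 and 134.5 CPM in the libraries with 13cRA and at 79.3 and 98.3 CPM in those without it, though 13cRA and DMSO were level under TMM scaling (-0.02), and MSI1 was lower in every drug-treated library than in DMSO.

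LIN28B (chromosome 6, 104936616 to 105083332) looked highest in the combination, and that height came from 1 cell. Its level was 61.6 CPM with 13cRA (95% Poisson interval 58.4 to 64.9, counting error only), 67.5 with doxazosin (65.2 to 69.9), 92.6 in the combination (90.4 to 94.8) and 62.9 in DMSO (60.7 to 65.2). 13cRA over DMSO was -0.03, and ran from -0.36 with TMM scaling to 0.17 as a mean of per-cell CPM. The combination was past the fold over DMSO (0.55) and over 13cRA (0.58), and it was 0.45 above doxazosin. A single combination cell held 2714 of the 6684 LIN28B counts, or 40.6%, while it held 1.99% of that library's reads. Without this cell the combination stood at 56.1 CPM, and the difference turned to -0.16 over DMSO, -0.13 over 13cRA and -0.26 over doxazosin. The next highest LIN28B count in any combination cell was 113.

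That cell had 18592 detected genes and 1436262 counts, the most on both measures among the 1197 kept cells. The next had 14436 detected genes, and all 4 kept cells above 9000 were combination cells. It held GATA3 at 150.4 CPM and MYCN at 682 CPM, and it also held IGF2BP3 at 423 CPM, 17.4% of that gene's count in the library. Its 394 HMGA1 counts were the highest of any combination cell, and 4.06% of that gene's count in the library. STMN2, at 158 CPM over the whole combination library, had 0 counts in it, which allows up to 2.09 CPM, and IGF2BP1 had 10.4 CPM. Wells had been picked by imaging as holding single live cells, per the labels, and whether this well held more than 1 cell was not tested.

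**Figure D2:**
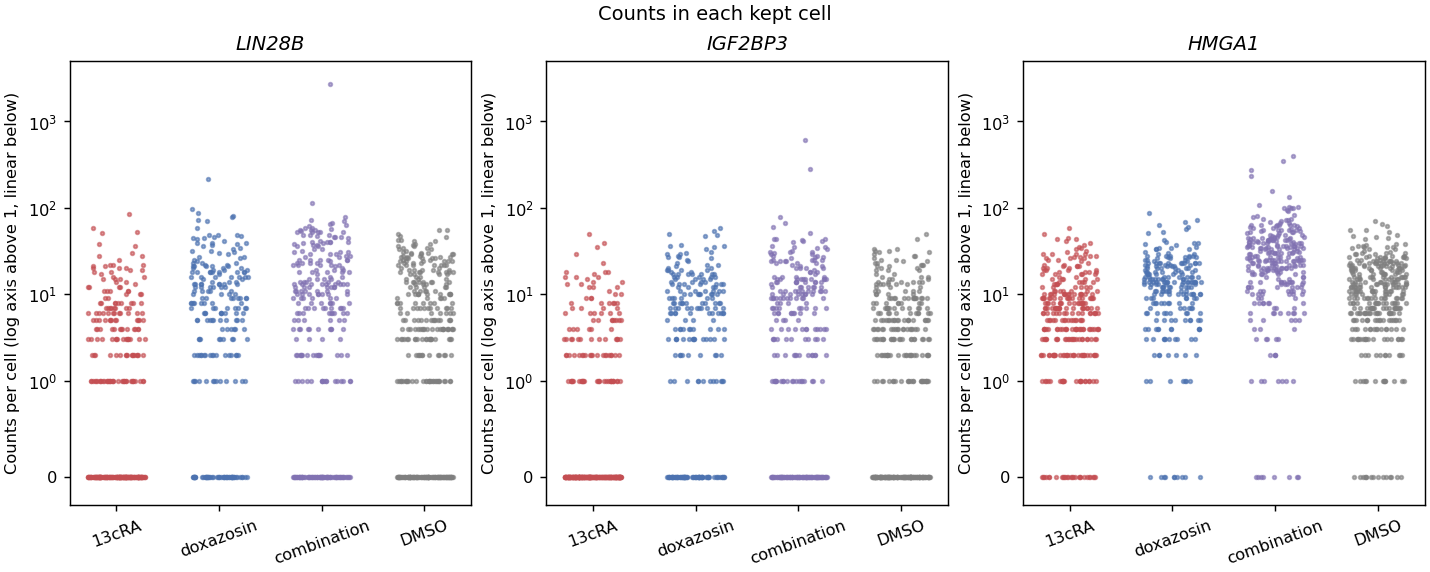
Counts of LIN28B, IGF2BP3 and HMGA1 in each kept cell (points; the vertical axis is logarithmic above 1 and linear below), by treatment. The lone point at 2714 in the LIN28B panel and the point at 608 in the IGF2BP3 panel are the same combination cell.

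The share of cells with LIN28B, which a single cell moves little, did not put the combination apart from DMSO. After thinning it was 49.0% with 13cRA (exact 95% binomial interval 42.6 to 55.4), 65.5% with doxazosin (59.1 to 71.6), 61.9% in the combination (55.8 to 67.7) and 59.5% in DMSO (53.9 to 64.8). The combination and DMSO intervals overlapped widely. The 13cRA interval lay below that of doxazosin, and whether the fewer genes per 13cRA cell play a part in this and the other low 13cRA shares was not tested. Cells with a count held a median of 3 LIN28B counts in each library, and cells with at least 5 counts were 18.9% with 13cRA, 17.0% with doxazosin, 14.4% in the combination and 17.7% in DMSO. Unthinned, the shares were 52.8%, 77.4%, 72.5% and 69.7% in the same order.

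**Figure D3:**
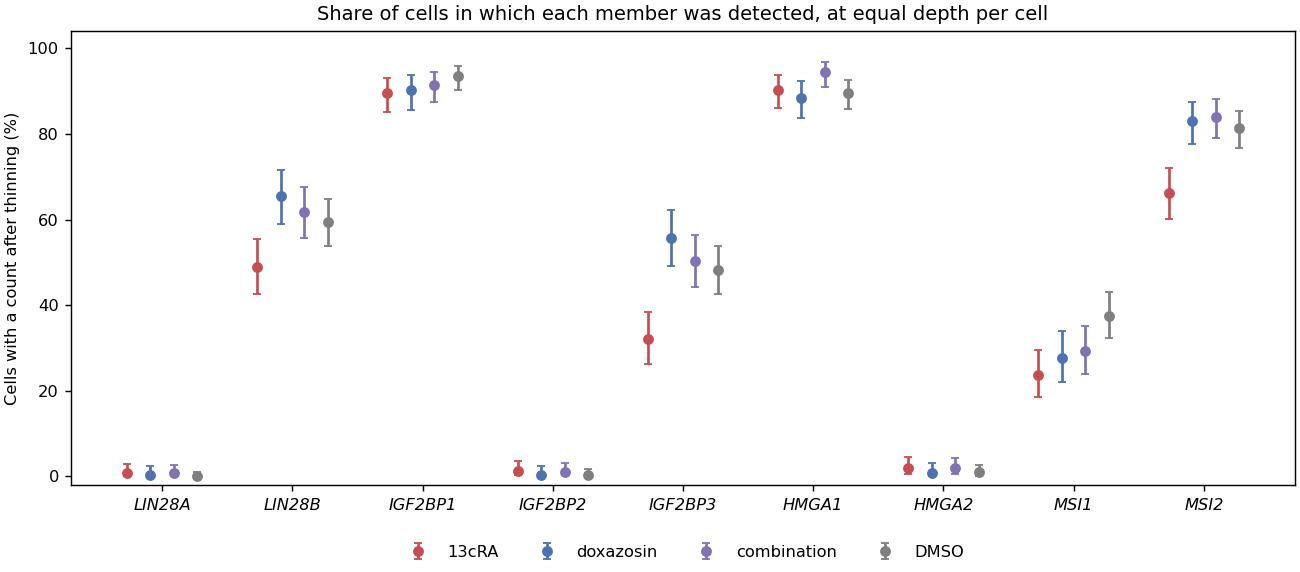
Percent of cells with at least 1 count of each gene after thinning to 34000 counts per cell, with exact 95% binomial intervals, in 249 13cRA, 235 doxazosin, 270 combination and 328 DMSO cells. The 13cRA library had the lowest share for LIN28B, IGF2BP3, MSI1 and MSI2, and LIN28A, IGF2BP2 and HMGA2 lay near 0 in each library.

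IGF2BP1 (chromosome 17, 48997412 to 49055650), which stabilises MYC and other growth messages, was lower in both libraries with doxazosin than in DMSO. It had 179 CPM with 13cRA (173.5 to 184.6), 147.7 with doxazosin (144.2 to 151.2), 148 in the combination (145.2 to 150.8) and 189.8 in DMSO (185.9 to 193.7). Scaled by total counts, the 2 libraries with doxazosin lay together and below the 2 without it. With TMM scaling the combination was 0.04 above 13cRA, so 13cRA no longer stood above them. The differences over DMSO were -0.08 with 13cRA, -0.36 with doxazosin and -0.36 in the combination, none past the fold. The negative sign for doxazosin and for the combination held in all 11 processing alternatives, with ranges of -0.39 to -0.26 and -0.41 to -0.20. The 13cRA difference over DMSO ran from -0.42 with TMM scaling to 0.13 as a mean of per-cell CPM, and that of the combination over 13cRA from -0.39 to 0.04. Detection stayed near its ceiling, with 89.6% of thinned cells under 13cRA, 90.2% with doxazosin, 91.5% in the combination and 93.6% in DMSO. Cells with at least 5 counts were 55.4%, 48.1%, 48.9% and 58.5% in the same order.

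IGF2BP3 (chromosome 7, 23310209 to 23470467), the paralog with the strongest oncofetal pattern, was lowest with 13cRA. It had 32.8 CPM with 13cRA (30.5 to 35.3), 42.9 with doxazosin (41.0 to 44.8), 48.3 in the combination (46.8 to 50.0) and 38.3 in DMSO (36.6 to 40.1). The combination was 0.54 above 13cRA, but 0.30 without the cell described above, with its level then at 40.7 CPM. Its share of thinned cells was 32.1% with 13cRA (26.4 to 38.3), 55.7% with doxazosin (49.1 to 62.2), 50.4% in the combination (44.3 to 56.5) and 48.2% in DMSO (42.7 to 53.7). The 13cRA interval lay below the other 3, but these intervals cover counting error only, and cells of 1 library are not replicates of a treatment. In CPM, 13cRA over DMSO was -0.22 and ran from -0.54 with TMM scaling to 0.05 within 1 window of depth per cell. Its exons share 1521 bases with MALSU1, a gene on the opposite strand with 47.4 CPM with 13cRA, 40.5 with doxazosin, 41.2 in the combination and 53.8 in DMSO. Whether reads were assigned by strand is not given in the sources used here, so reads in that stretch cannot be told apart.

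The IGF2BP3 and LIN28B windows are shown because they are the 2 that held the motif searched for, the E-box CACGTG. Of the 9 genes, 5 matched the RefSeq promoter table (GRCh38.p14), with 9 windows of 250 bases before a gene start. CACGTG, which reads the same on both strands, was found in 2 of these 9 windows and in 6.35% of the 35116 windows of all genes. The motif is in capitals, 174 and 146 bases before the IGF2BP3 start (chr7:23470492-23470741, minus strand) and 47 bases before the second LIN28B start (chr6:104956857-104957106, plus strand):
IGF2BP3: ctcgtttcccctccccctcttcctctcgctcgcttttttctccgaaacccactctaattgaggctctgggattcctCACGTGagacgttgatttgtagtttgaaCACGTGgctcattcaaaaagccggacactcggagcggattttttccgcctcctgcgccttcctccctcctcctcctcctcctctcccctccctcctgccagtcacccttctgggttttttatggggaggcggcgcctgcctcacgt
LIN28B: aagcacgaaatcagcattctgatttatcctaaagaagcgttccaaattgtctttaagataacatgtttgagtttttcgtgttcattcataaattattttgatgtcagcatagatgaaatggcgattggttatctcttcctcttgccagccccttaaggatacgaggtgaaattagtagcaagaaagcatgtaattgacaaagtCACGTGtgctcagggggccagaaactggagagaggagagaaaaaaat
The nuclear receptor hexamer AGGTCA, read on both strands, was in 1 of the 9 windows, an MSI2 window, and in 12.1% of all windows. Whether CACGTG has a part in the level of IGF2BP3 or LIN28B was not tested. A match is a description of letters only.

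HMGA1 (chromosome 6, 34236873 to 34246231) was higher in both libraries with 13cRA, except that 13cRA alone was level with DMSO (-0.02) under TMM scaling, and lowest with doxazosin alone. It had 122 CPM with 13cRA (117.6 to 126.7), 79.3 with doxazosin (76.8 to 81.9), 134.5 in the combination (131.9 to 137.2) and 98.3 in DMSO (95.5 to 101). No 2 of these intervals overlapped, but they cover counting error only, not the spread between cells. The differences over DMSO were 0.31 with 13cRA, -0.31 with doxazosin and 0.45 in the combination, all within the fold. The combination was 0.76 above doxazosin, higher than 94.9% of the 9579 genes in that comparison, and this difference stayed between 0.63 and 0.77 in all 11 alternatives. The combination was 0.14 above 13cRA. Without cells over 9000 genes it was 0.02 above 13cRA and 0.33 above DMSO.

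HMGA1 was found in most cells of each library, near the ceiling of detection. It was seen in 90.4% of thinned cells with 13cRA, 88.5% with doxazosin, 94.4% in the combination and 89.6% in DMSO. At least 5 thinned counts were held by 36.9% of 13cRA cells, 22.6% of doxazosin cells, 40.0% of combination cells and 27.4% of DMSO cells. TMM scaling shifted the median of all genes by -0.32 in 13cRA over DMSO. CLDN5 was also high in the 2 libraries with 13cRA, and its part in the HMGA1 result was not tested.

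MSI1 (chromosome 12, 120341330 to 120369180), a translational regulator of neural progenitors, was lower in all 3 drug-treated libraries than in DMSO. It had 12.8 CPM with 13cRA (11.4 to 14.4), 10.7 with doxazosin (9.80 to 11.7), 11.5 in the combination (10.7 to 12.3) and 18.7 in DMSO (17.5 to 19.97). The DMSO interval, for counting error only, lay above the other 3, and those overlapped each other. The differences over DMSO were -0.51 with 13cRA, -0.75 with doxazosin and -0.66 in the combination, each past the fold. The doxazosin and combination differences stayed past it in all 11 alternatives, and the 13cRA difference in 8 of 11. In the doxazosin comparison only 1.88% of the 9579 genes had a lower difference.

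The share of cells with MSI1 was also highest in DMSO, but its order among the drug-treated libraries was not that of the levels. It was 23.7% of thinned cells with 13cRA (18.6 to 29.5), 27.7% with doxazosin (22.0 to 33.9), 29.3% in the combination (23.9 to 35.1) and 37.5% in DMSO (32.2 to 43.0). The DMSO interval, for counting error only, lay above that of 13cRA and overlapped those of doxazosin and the combination. The difference in the combination was smaller than the sum of the 2 single-drug differences by 0.60, with a range of 0.47 to 0.88 over the alternatives.

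MSI2 (chromosome 17, 57255851 to 57684685) did not follow its paralog. It had 73.1 CPM with 13cRA (69.6 to 76.7), 100.8 with doxazosin (97.97 to 103.8), 95.1 in the combination (92.8 to 97.3) and 85.6 in DMSO (83.0 to 88.2). It was lowest with 13cRA alone, where it was seen in 66.3% of thinned cells (60.0 to 72.1), against 83.0% with doxazosin, 84.1% in the combination and 81.4% in DMSO (76.8 to 85.5). The differences over DMSO were -0.22 with 13cRA, 0.23 with doxazosin and 0.15 in the combination, none past the fold. The 13cRA value ran from -0.55 with TMM scaling to -0.00 with no cell filter.

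**Figure D4:**
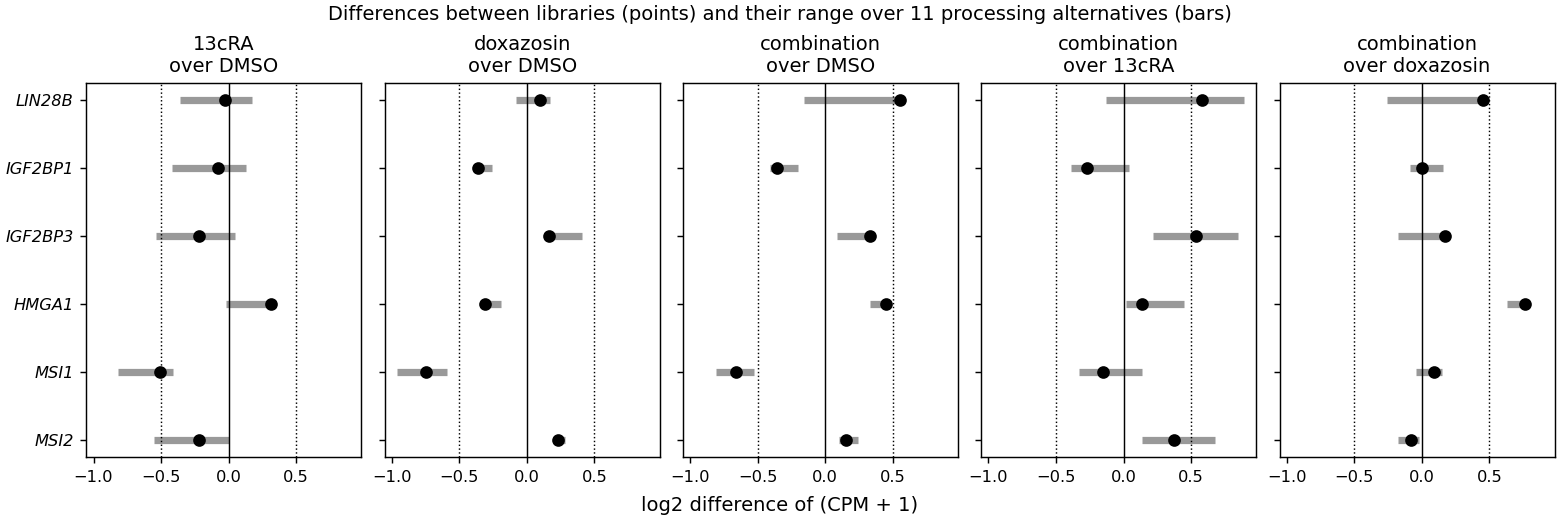
log2 difference of (CPM + 1) for the 6 measured genes in 5 comparisons (points), with the lowest and highest value over 11 processing alternatives (bars); dotted lines mark the fold of 0.5. The bars of MSI1 over DMSO lie below 0 for each drug treatment, the bar of HMGA1 for the combination over doxazosin lies above 0.5, and the LIN28B bars for the combination cross 0.

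Across all genes the fold was passed often, and the count among the 6 genes has to be read against that. With 13cRA over DMSO 0 of 6 were past the fold upward and 1 of 6 downward, against 17.5% and 17.5% of the 9579 genes. With TMM scaling 0 of 6 were higher and 3 of 6 lower, against 8.26% higher and 38.4% lower over all genes. With doxazosin over DMSO the counts were 0 and 1 of 6, against 5.24% higher and 6.18% lower. In the combination over DMSO they were 1 and 1 of 6, against 9.6% higher and 10.5% lower. In the combination over 13cRA they were 2 and 0 of 6, against 16.7% higher and 17.7% lower, and with TMM scaling 3 and 0 of 6, against 34.6% and 7.81%. In the combination over doxazosin they were 1 and 0 of 6, against 10.5% higher and 8.8% lower. The comparisons with DMSO share 1 DMSO library.

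Within a library the 6 genes varied from cell to cell with little correlation. The median thinned cell held counts of 4 of the 6 in each library, and 2.01% of 13cRA cells, 7.66% of doxazosin cells, 7.41% of combination cells and 7.93% of DMSO cells held all 6. Spearman's rho between pairs lay between -0.10 and 0.20 in single libraries, and the 15 pairs had means over the 4 libraries of -0.001 to 0.092. Only 3 of the genes were dense enough to ask which other genes resembled them across cells. Among 2492 candidate genes, the closest to IGF2BP1 were NCL, MCM7, TSR1, ETF1 and PRKDC, with mean rho of 0.19 to 0.22. Those closest to HMGA1 were MCM7, PKM, MYBL2, SLC25A39 and AP3D1 (0.13 to 0.16), and those closest to MSI2 were DDX21, MARCKS, GOLIM4, SLC6A15 and SOX11 (0.16 to 0.19). These correlations are weak, and cells of a library share their treatment and reads.

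Genes of let-7 processing and silencing showed no common direction. Of 15 measured genes of let-7 processing and silencing, 3 were past the fold upward and 0 downward with 13cRA over DMSO, with a median of 0.07 against -0.02 over all genes. They were TUT7, a uridylyltransferase that acts on precursor let-7 (34.1 CPM with 13cRA, 15.6 in DMSO), KHSRP, a let-7 processing factor (35.3 and 16.7 CPM), and TRIM71, a ubiquitin ligase and classic let-7 target (33.1 and 17.8 CPM). TUT7 was also higher in the combination, at 27.8 CPM, while KHSRP had 14.1 and TRIM71 16.1 CPM there. With doxazosin 2 genes were past the fold upward and 1 downward, and in the combination likewise 2 and 1. These counts are scaled by total counts. Over all measured genes so scaled, the shares were 17.5% higher and 17.5% lower with 13cRA, 5.24% and 6.18% with doxazosin, and 9.6% and 10.5% in the combination. With TMM scaling the 13cRA shares of all genes were 8.26% and 38.4%, and the counts of this list are not given for it.

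Scaled by total counts, 9 of 27 measured let-7 targets outside the group were past the fold upward and 4 downward with 13cRA over DMSO. With the same scaling, 17.5% of all genes were higher and 17.5% lower. With TMM scaling 8.26% and 38.4% of all genes were, and the counts of this list are not given for it. The list's median was 0.06, or -0.27 with TMM scaling. In the other comparisons with DMSO, 0 were higher and 2 lower with doxazosin (5.24% and 6.18% of all genes), and 0 higher and 3 lower in the combination (9.6% and 10.5%). HRAS had 105 CPM with 13cRA, 42.7 with doxazosin, 66.7 in the combination and 53.3 in DMSO. The cell with the most genes held 18.1% of its combination count. Without that cell HRAS had 55.7 CPM in the combination, 0.06 over DMSO. RRM2, the small subunit of ribonucleotide reductase, had 243, 438, 342 and 488 CPM in the same order. IGF1R had 10.7, 5.00, 3.17 and 4.22 CPM.

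Several let-7 loci lie inside longer host transcripts, of which HUWE1, MIRLET7BHG and WDR82, the last found by position, passed a mean of 5 CPM. HUWE1, which holds miR-98 and a let-7f locus, had 139 CPM with 13cRA, 119.7 with doxazosin, 124.4 in the combination and 124.3 in DMSO. MIRLET7BHG, which spans a let-7a locus and let-7b, had 4.99, 6.13, 3.74 and 10.0 CPM in the same order, highest in DMSO, from 113, 283, 270 and 483 counts. WDR82, which holds let-7g, had 94.5, 63.2, 79.4 and 79.3 CPM. Below a mean of 5 CPM, MIR99AHG, which holds let-7c, had 8.08, 3.27, 3.075 and 2.575 CPM, highest with 13cRA. MIRLET7A1HG had 6.94, 6.24, 2.355 and 2.74 CPM, and MIR100HG, which holds a let-7a locus, 2.21, 0.758, 1.025 and 0.685 CPM. MIRLET7IHG stayed between 1.04 and 1.34 CPM. SPACA6, which holds let-7e, had 0, 0.0866, 0.332 and 0.415 CPM, lowest with 13cRA. A host transcript's level does not give that of the mature microRNA.

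RAN and AURKA, which have been placed downstream of LIN28B in neuroblastoma, were lowest with 13cRA. For LIN28B, 13cRA over DMSO was -0.03, and ran from -0.36 with TMM scaling to 0.17 as a mean of per-cell CPM. Whether LIN28B plays a part in the levels of RAN and AURKA was not tested. RAN, a nuclear transport GTPase, had 1049 CPM with 13cRA, 1559 with doxazosin, 1450 in the combination and 1503 in DMSO. AURKA, a mitotic kinase that stabilises MYCN protein, had 103, 146, 126 and 166 CPM. Scaled by total counts, 0 of 7 genes in this list were higher and 2 lower with 13cRA, against 17.5% and 17.5% of all genes. With TMM scaling 8.26% and 38.4% of all genes were, and the counts of this list are not given for it. By total counts the list had 0 and 0 with doxazosin (5.24% and 6.18% of all genes), and 0 and 1 in the combination (9.6% and 10.5%). The gene lower in the combination was TPX2, the activator of AURKA. TPX2 was at -0.52 over DMSO there, and at -0.49, within the fold, without the cell with the most genes.

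Messages bound by the IGF2BP proteins differed among themselves. IGF2, after which the family is named, had 0 counts in all 4 libraries, which allows up to 0.133 CPM with 13cRA, 0.065 with doxazosin, 0.0416 in the combination and 0.0623 in DMSO. ACTB had 2821 CPM with 13cRA, 5050 with doxazosin, 4272 in the combination and 4775 in DMSO. BTRC had 21.3, 34.7, 47.6 and 18.4 CPM, but 57.8% of its combination count lay in the cell with the most genes, without which it had 20.5 CPM. Its difference over DMSO was then 0.15.

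Of 7 measured IGF axis genes, 2 were past the fold upward and 1 downward with 13cRA over DMSO (17.5% and 17.5% of all genes), 1 and 2 with doxazosin (5.24% and 6.18%), and 0 and 2 in the combination (9.6% and 10.5%). IGFBP4, a secreted binder of IGF, had 76.2 CPM with 13cRA, 97.1 with doxazosin, 74.9 in the combination and 143 in DMSO. IRS2, an adaptor of the IGF1 receptor, had 23.4, 14.4, 9.36 and 13.3 CPM.

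Of 4 measured Musashi-bound messages, 0 were higher and 1 lower with 13cRA (17.5% and 17.5% of all genes), 1 and 0 with doxazosin (5.24% and 6.18%), and 0 and 0 in the combination (9.6% and 10.5%). NUMB, a Notch inhibitor whose translation MSI1 represses, had 8.75 CPM with 13cRA, 12.7 with doxazosin, 11.1 in the combination and 7.95 in DMSO. CDKN1A, a cell cycle inhibitor, had 49.9, 86.4, 61.3 and 73.2 CPM.

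Other RNA-binding and high mobility group genes gave the surroundings, counted here with scaling by total counts. Of all genes so scaled, 17.5% were higher and 17.5% lower with 13cRA, 5.24% and 6.18% with doxazosin, and 9.6% and 10.5% in the combination. With TMM scaling the 13cRA shares of all genes were 8.26% and 38.4%, and the counts of these lists are not given for it. Of 11 measured neural RNA-binding genes, 2 were higher and 1 lower with 13cRA, 3 and 1 with doxazosin, and 1 and 1 in the combination. Of 15 general RNA-binding genes, 3 were higher and 1 lower with 13cRA, and all 15 stayed within the fold with doxazosin and in the combination. Of 8 other high mobility group genes, 0 were higher and 1 lower with 13cRA, 0 and 0 with doxazosin, and 1 and 0 in the combination. HMGN2, a nucleosome binder, had 1173 CPM with 13cRA, 2155 with doxazosin, 1647 in the combination and 2146 in DMSO, lowest with 13cRA.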

How the data were processed

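The authors deposited 1 table of raw read counts per gene and cell, whole numbers for 60651 versioned Ensembl IDs and 1287 cells, whose column names tie each cell to its treatment. Full-length libraries had no molecular identifiers, per the labels' protocols. Tools named in the submitters' processing notes are Seurat 4.3.0, featureCounts, STAR 2.7.8a, fastp 0.23.3 and bcl2fastq. The same notes name 2 builds (GRCh37 and GRCh38.p13) without saying what each was for. Annotation, strand setting and handling of shared reads: not given in the sources used here. Without strand, reads from antisense genes, and those shared with HMGA1 pseudogenes, cannot be told apart.

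Cells with at least 500 genes and at most 25% mitochondrial counts were kept (1197 cells). Too few genes removed 21 cells and mitochondrial counts 70, with 1 cell in both. Doublets were not called, as wells were imaged. Columns are wells, not barcodes, and none is shared. Counts were summed per library and divided by total counts (CPM), since 1 sample per treatment gives edgeR no spread to test with. Intervals are exact Poisson for CPM and Clopper-Pearson for shares, at 95%, and cover counting error only. For shares, cells were thinned to 34000 counts (the 10th percentile of depth, rounded down), leaving out 69 13cRA, 4 doxazosin, 17 combination and 25 DMSO cells. Genes with a mean of at least 5 CPM over the 4 libraries were compared. GENCODE 29 (GRCh38) gave positions and lengths, and 60437 IDs had a symbol. The steps were tested on simulated data.

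Named were all 9 genes, from each list the 3 measured genes with the largest 13cRA difference from DMSO at most, and for genes in at least 50% of thinned cells in every library the 5 nearest by mean rank correlation. WDR82, GATA3, HAND2, MYCN, STMN2, TH, DBH, PECAM1, CDH5, VWF, EGFL7, COL3A1, COL1A2, ERBB3, IGF2 and MALSU1 are named beyond this rule, after their values were seen. So are the let-7 hosts MIR99AHG, MIRLET7A1HG, MIR100HG, MIRLET7IHG and SPACA6. Some genes picked by the rule are not reported here. Genes and lists were chosen with earlier results of these data known. Alternatives were TMM (edgeR 4.0.16) and DESeq2 1.42.0 size factors, per-cell means, thinned counts, other cell and gene filters, a depth window of 34000 to 129000 counts, a pseudocount of 5 CPM and single cells left out. Leaving out the cell with the most genes and the longest-transcript length were chosen after seeing the data. Python 3.11.15, scipy 1.17.1 and R 4.3.3 were used.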

Additional observations from a re-analysis of the deposited data

Results flagged for a closer look

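HMGA1 differed with doxazosin in opposite directions in the absence and presence of 13cRA. Doxazosin over DMSO was -0.31 (79.3 against 98.3 CPM), and the combination over 13cRA was 0.14 (134.5 against 122 CPM), so the effects differed by 0.44 on the log2 scale. The signs held in all 11 alternatives for both comparisons, with ranges of -0.33 to -0.19 and 0.02 to 0.45. The 0.02 came with cells over 9000 genes left out, all of them combination cells, so the combination was then almost level with 13cRA. The difference was not tested, since each treatment has 1 library.

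IGF2BP3 showed such a change of direction with 13cRA. 13cRA over DMSO was -0.22 (32.8 against 38.3 CPM), and the combination over doxazosin was 0.17 (48.3 against 42.9 CPM), which differ by 0.39. Without the combination cell with the most detected genes the second value was -0.07 and the difference 0.14. This difference was not tested either.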

How the results depend on the processing

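No paired analysis was possible because each treatment has 1 sample, and for the same reason no replicate could be left out. TMM factors shifted the median of all genes by -0.32 in 13cRA over DMSO and by 0.30 in the combination over 13cRA, DESeq2 factors by -0.28 and 0.23, and neither by over 0.09 in size elsewhere. Of 330 alternative values for differences of the 6 genes, 217 stayed within the counting interval, 106 moved beyond it and 7 turned the sign of a difference past the fold. The sign also turned in 21 values of differences within the fold, and with the 7 these touched 12 differences of the 6 genes. The 7 were all LIN28B in the combination. Over DMSO it was -0.14 without cells over 9000 genes, -0.14 without the highest LIN28B cell of each library and -0.16 without the cell with the most genes. Over 13cRA it was -0.11, -0.05 and -0.13 in the same order, and -0.05 as a mean of per-cell CPM. The cause of the last was not tested. The list medians that reversed, both with no filter on low genes, were hosts of let-7 precursors (0.10) and IGF2BP-bound messages (-0.01) in the combination over DMSO.

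Counts of the 6 genes past the fold moved as follows. With 13cRA over DMSO, 3 were lower with TMM or DESeq2 factors, and 0 with at least 2000 genes per cell, within the depth window or with a pseudocount of 5 CPM. In the combination over DMSO, 0 were higher with per-cell means, thinned counts, no cell filter, the depth window or any of the 3 settings that leave out cells. In the combination over 13cRA, 0 were higher under those settings other than no cell filter, and 1 with no cell filter or a pseudocount of 5 CPM, while 3 were higher with TMM or DESeq2 factors.

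Over all genes, the percent past the fold moved beyond 1.5 times as follows (higher, then lower). With no filter on low genes it was 10.7 and 5.33 for 13cRA over DMSO, 2.84 and 3.26 for doxazosin over DMSO, 4.71 and 4.03 for the combination over DMSO, 5.44 and 9.76 for the combination over 13cRA, and 5.21 and 3.73 for the combination over doxazosin. With a mean of at least 20 CPM it was 2.84 and 2.55 for doxazosin over DMSO, 6.48 lower for the combination over DMSO, and 6.7 and 5.39 for the combination over doxazosin. With TMM it was 8.26 and 38.4 for 13cRA over DMSO and 34.6 and 7.81 for the combination over 13cRA. With DESeq2 factors it was 8.94 and 35.7, and 29.6 and 9.74. The low counts of LIN28A, IGF2BP2 and HMGA2 limit them to a statement of level.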
